A study of Bos taurus with 12 samples.

Results

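Of the genes of estrogen and progesterone signalling, 9 were followed in the bovine endometrium on Day 15 of the estrous cycle, on an array that measured 26323 transcripts with 61333 usable probes. The 9 genes were chosen with earlier results of these data known and located by their symbol in the array's annotation, not by values. They matched 10 transcripts and 20 probes, with 2 probes to a transcript and 2 transcripts for NCOA1. ESR1 and ESR2 are the nuclear estrogen receptors and PGR is the nuclear progesterone receptor. PGRMC1 and PGRMC2 are membrane-associated heme-binding proteins of the progesterone receptor membrane component family, NCOA1 and NCOA2 are steroid receptor coactivators, FKBP4 is a co-chaperone that keeps the progesterone receptor able to bind its hormone, and GREB1 is a gene that estrogen induces in many tissues. No gene beyond these 9 was counted among the receptors described here.

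The biopsies came from 4 old females (OF), aged 13 to 14 years and nulliparous, from 4 young females (YF), aged 4 to 5 years and primiparous, and from contemporary cows whose age and parity the labels do not give. By the study's methods the OF and YF were synchronised before the biopsy, and the YF were sampled more than a year after calving. The OF and YF were Holstein clones of a single donor cow according to the study's methods, so that their spread is that of a single genotype, and age and parity went together and cannot be told apart. The methods give intercaruncular tissue from the horn on the side of the corpus luteum for the clones, and the labels give neither for the contemporary cows. The RNA of each animal was hybridized to its own array, and the labelling protocol and the scanned channel are Cy-3 although the dye field of the labels differs from sample to sample. Of the 4 contemporary cows, 3 were used, because the labels leave out cow 1111 for a divergent phenotype.

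Estrogen receptors and the progesterone receptor are transcription factors that bind their hormone, recruit coactivators and switch target genes on or off. In the cycling cow, progesterone from the corpus luteum dominates the uterus for most of the cycle and lowers its own receptor in the epithelium. Toward the end of the luteal phase the oxytocin receptor comes up in that epithelium, a step of the timing of luteolysis. Day 15 lies near this turn in a cow that is not pregnant.

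The probes that carry the receptors are shown first, because every value given for a gene rests on these letters and the probes of a gene could differ in what they measured. They are the designed 60-base sequences of the array, printed 5′ to 3′. Capitals in the second PGR probe mark the codons of the P box, the residues by which the receptor reads its DNA element, and capitals in the second NCOA2 probe mark the codons of an LXXLL motif, the short helix by which a coactivator docks on a receptor. Both were found by searching the strand as printed for the codons in a reading frame with no stop. The P box codons were found in 1 of 61333 probes and the LXXLL codons in 3.17% of them, so that the second pattern alone is frequent and says nothing on function.
ESR1 second probe: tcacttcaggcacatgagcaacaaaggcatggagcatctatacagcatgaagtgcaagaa
ESR2 first probe: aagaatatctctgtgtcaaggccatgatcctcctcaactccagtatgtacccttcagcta
ESR2 second probe: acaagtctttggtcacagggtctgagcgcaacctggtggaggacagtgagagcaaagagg
PGR first probe: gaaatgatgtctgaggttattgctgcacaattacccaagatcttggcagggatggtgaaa
PGR second probe: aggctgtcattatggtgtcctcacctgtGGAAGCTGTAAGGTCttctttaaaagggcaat
NCOA2 second probe: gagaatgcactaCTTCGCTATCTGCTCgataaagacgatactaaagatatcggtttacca
GREB1 first probe: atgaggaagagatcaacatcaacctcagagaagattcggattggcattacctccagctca
GREB1 second probe: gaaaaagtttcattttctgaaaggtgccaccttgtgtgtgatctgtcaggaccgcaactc

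The array's annotation places the transcripts on the UMD3.1 assembly and gives no position for single probes. ESR1 lies at chr9:89969586-90255801, ESR2 at chr10:76707922-76757370 and PGR at chr15:8104485-8222755. PGRMC1 lies at chrX:3468827-3477212 and PGRMC2 at chr17:29872406-29890867. NCOA1 lies at chr11:74511607-74590933, NCOA2 at chr14:35949385-36126601, FKBP4 at chr5:107445596-107453517 and GREB1 at chr11:86199420-86268193. Whether a probe lies in an exon or in a UTR was not analysed here.

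The scanner software called 71.6% to 74.9% of probes on an array well above background and 0 spots saturated, and the 75th percentile of the processed intensity was between 968 and 1597. A level below is log2 of the intensity minus that of the 75th percentile of its array, averaged over the probes of a transcript, so that 0 is the 75th percentile and a difference of 1 is a doubling. Levels of different genes come from different probes and are not set against each other. The tissue label was checked against marker genes on the array. Of these, 14 of 14 epithelial, 12 of 12 stromal and 15 of 16 smooth muscle markers were above background. The smooth muscle list held 18 genes. Smooth muscle stood out in 2 OF, with a mean score of 3.94 in OF 2258 and 2.32 in OF 0234 against -1.39 to 0.058 in the other animals used. The epithelial score was lowest in OF 2258, at -1.92, and in YF 1069, at -1.13, against -0.18 to 0.88 in the others. In a biopsy, fewer cells of a type and less RNA per cell cannot be told apart.

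No difference between OF and YF was detected in any transcript of the 9 genes that could be tested. Of the 9 transcripts that could be tested, 0 passed an adjusted p of 0.05 in limma, where the background was 0% of 19755 transcripts, and 0 passed an unadjusted p of 0.05, where it was 2.41%. The OF and YF overlapped for each of the 9, and over all transcripts tested the groups did not overlap for 1.54%. FCROS, the rank method that the study names, called 0 of the 10 transcripts against 4.94% of all transcripts. The median difference, OF minus YF, was 0.091 on the log2 scale over the 9 transcripts and 0.0096 over all tested. With a background so low, the counts say little about the 9 genes, and the intervals below show which differences these animals could still hide.

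The contemporary cows did not stand apart either. Against YF, 0 of the 9 transcripts passed an adjusted or an unadjusted p of 0.05, where 0% of 19993 transcripts passed the first and 3.03% the second (1.29% higher and 1.74% lower in contemporary cows). Against OF, 0 of the 9 passed, where the background was 0% of 19914 after adjustment and 4.58% before it (2.59% higher and 1.99% lower). The groups overlapped for each of the 9 in both comparisons, and over all transcripts they did not overlap for 3.83% against YF and 5.78% against OF. The median difference of the 9 was -0.041 against YF and -0.18 against OF, and over all transcripts it was -0.023 and -0.043. Both comparisons use the same 3 contemporary cows, and each shares its clones with the comparison of OF and YF.

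**Figure D1:**
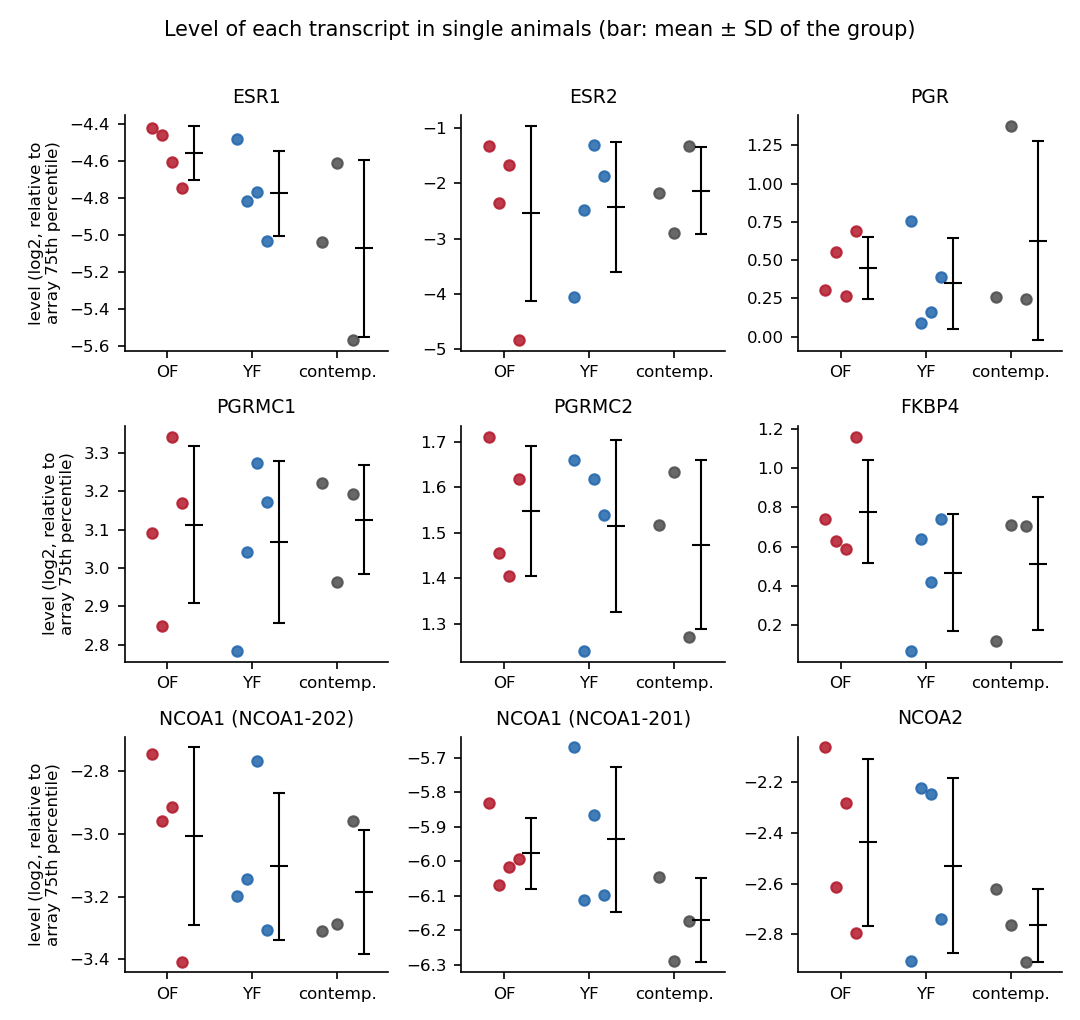
Each panel plots 1 transcript, with its level on the y axis as log2 relative to the 75th percentile of the array and the groups on the x axis (OF n = 4, YF n = 4, contemporary n = 3). Points are single animals, and the bar beside them is the mean ± SD. The groups overlap in every panel, ESR2 has single low animals in OF and YF, and PGR has 1 high contemporary cow, at 1.38.

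ESR1, the estrogen receptor of most uterine responses, was measured near the lower end of the array. Its level was -4.42, -4.46, -4.60 and -4.74 in the 4 OF and -4.48, -4.77, -4.82 and -5.04 in the 4 YF. The contemporary cows were at -4.61, -5.04 and -5.57. The OF 0233 and 0234 lay above the highest YF, OF 0245 and 2258 lay among the YF, and contemporary cow 1129 was the lowest of all. The mean of the OF was 1.16 times that of the YF (log2 difference 0.22, SE 0.16, 95% interval -0.14 to 0.58), with p = 0.203 in limma before adjustment and p = 0.143 in an exact permutation test, which can give 0.0286 at the lowest. The difference was 0.19 on the first slide, with 1 OF and 2 YF, and 0.22 on the second.

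The contemporary cows had the lowest mean of ESR1. They were 0.52 lower than the OF on the log2 scale (SE 0.24, 95% interval -1.08 to 0.054, fold 0.700), with p = 0.0699 in limma before adjustment, 0.911 after it and 0.0571 in an exact permutation test. Against the YF they were lower by 0.30 (SE 0.25, 95% interval -0.88 to 0.29). A single cow carried much of this, since without cow 1129 the difference from the OF was -0.27 and that from the YF -0.049, while without cow 1128 they were -0.75 and -0.53. With normexp background correction of the raw signals the differences were also smaller, -0.30 from the OF (SE 0.16) and -0.11 from the YF (SE 0.16).

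The second ESR1 probe, printed above, moved more than the first. OF minus YF was 0.095 on the first probe and 0.34 on the second, and contemporary cows minus OF was -0.25 and -0.78. Over the 11 arrays used, the first probe read between 42.9 and 99.3 units of intensity and the second between 19.1 and 44.7, where the dimmest probes called well above background read 10.96 to 17.1. Both were above background on 12 of 12 arrays. Deviations of the probes from their group means correlated at r = 0.70 over 11 arrays, as a description, and OF 2258 stood apart, as the lowest OF on the first probe, at -4.49, and the second highest on the second, at -4.99. The size of each ESR1 difference depended on the probe, and its direction did not.

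ESR2, the second nuclear estrogen receptor, was the most variable of the 9 genes. Its level was -1.33, -1.66, -2.36 and -4.84 in the OF and -1.31, -1.86, -2.48 and -4.05 in the YF. The contemporary cows were at -1.32, -2.17 and -2.90. In each clone group 3 animals were close to each other and 1 was far below them, OF 2258 and YF 1069. The span from the lowest to the highest animal was 11.5-fold, and the SD within groups, 1.27, was higher than that of 98.3% of the 18682 transcripts above background on all 11 arrays, whose median was 0.32. Both ESR2 probes showed it, with r = 0.99 between their deviations.

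With this spread, the groups could not be separated for ESR2. The difference OF minus YF was -0.12 on the log2 scale (SE 0.84, 95% interval -2.05 to 1.81), an interval that covers a fold from 0.242 to 3.51. Without OF 2258 it was 0.65, and without YF 1069 it was -0.66. Contemporary cows differed from YF by 0.30 (SE 0.65) and from OF by 0.41 (SE 0.84).

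**Figure D2:**
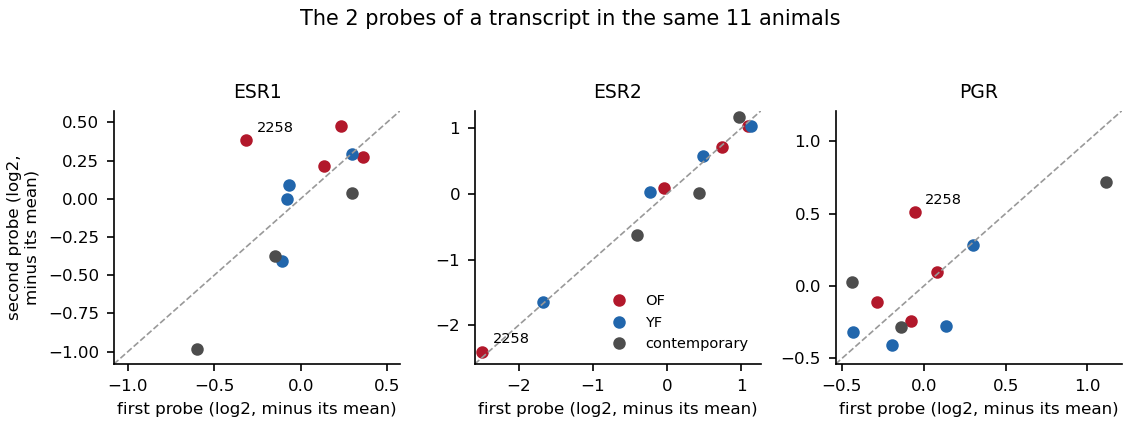
Each point is 1 animal, with the first probe of the gene on the x axis and the second on the y axis, both as log2 level minus the mean of that probe over 11 animals. The dashed line marks equal deviations. The ESR2 probes lie along it over their whole range, with r = 0.99, and OF 2258 lies off it for ESR1 and PGR.

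PGR, the receptor through which progesterone acts in the nucleus, had means of 0.45 ± 0.20 (SD, n = 4) in the OF and 0.35 ± 0.30 in the YF. Its level was 0.26, 0.30, 0.55 and 0.69 in the OF and 0.086, 0.16, 0.39 and 0.75 in the YF. The contemporary cows were at 0.25, 0.26 and 1.38. The clone groups covered nearly the same range, and cow 1128 stood above every other animal. OF minus YF was 0.10 (SE 0.19, 95% interval -0.33 to 0.53), with p = 0.571 in an exact permutation test, and the interval covers a fold from 0.798 to 1.45. Contemporary cows exceeded YF by 0.28 (SE 0.32) and OF by 0.18 (SE 0.31), and without cow 1128 these differences were -0.096 and -0.20. The 3 contemporary cows lay on the second slide, and with the slide as a block they exceeded YF by 0.056 (SE 0.38) and OF by 0.11 (SE 0.35).

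In cow 1128 the first PGR probe was at 1.54 and the P box probe at 1.22, against at most 0.73 and 1.004 in any other animal used. The same cow had OXTR, the oxytocin receptor, at 1.18, where the other contemporary cows had it at -4.97 and -3.52, and its ESR1, at -4.61, was the highest of its group. OF 2258 split the PGR probes, with 0.37 on the first and 1.004 on the P box probe, and cow 1068 split them the same way, with -0.011 and 0.52. For OF minus YF the first probe gave -0.037 and the P box probe 0.24, so that the direction of this small difference depended on the probe.

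PGRMC1 and PGRMC2 were the steadiest of the genes together with NCOA1. PGRMC1 was at 2.85, 3.09, 3.17 and 3.34 in the OF, at 2.78, 3.04, 3.17 and 3.27 in the YF and at 2.96, 3.19 and 3.22 in the contemporary cows. PGRMC2 was at 1.41, 1.46, 1.62 and 1.71 in the OF, at 1.24, 1.54, 1.62 and 1.66 in the YF and at 1.27, 1.52 and 1.63 in the contemporary cows. The 3 groups lay on top of each other for both genes. OF minus YF was 0.045 for PGRMC1 (SE 0.17, 95% interval -0.33 to 0.42) and 0.033 for PGRMC2 (SE 0.15, 95% interval -0.31 to 0.37). Over the 3 comparisons the lowest limit of an interval was -0.47, for PGRMC2 in contemporary cows against OF, and the highest was 0.46, for PGRMC1 in contemporary cows against YF. From the lowest to the highest animal PGRMC1 spanned 1.47-fold and PGRMC2 1.39-fold, and only 17.2% of the transcripts above background on every array had a smaller SD within groups than PGRMC1 and 11.8% a smaller one than PGRMC2.

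FKBP4 had the largest difference between OF and YF of the 9 transcripts, and it did not pass the test. Its level was 0.59, 0.63, 0.74 and 1.16 in the OF and 0.070, 0.42, 0.64 and 0.74 in the YF, and 0.12, 0.70 and 0.71 in the contemporary cows. The highest animal, OF 2258, and the lowest, YF 1069, were the same animals that were low in ESR2. OF 0233 was level with the highest YF, and OF 0234 and 0245 lay within the range of the YF. The OF exceeded the YF by 0.31 (SE 0.20, 95% interval -0.15 to 0.77), a fold of 1.24, with p = 0.156 in limma before adjustment and p = 0.229 in an exact permutation test. Without OF 2258 the difference was 0.18, without YF 1069 0.18, and without both 0.052. Both probes gave 0.31.

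**Figure D3:**
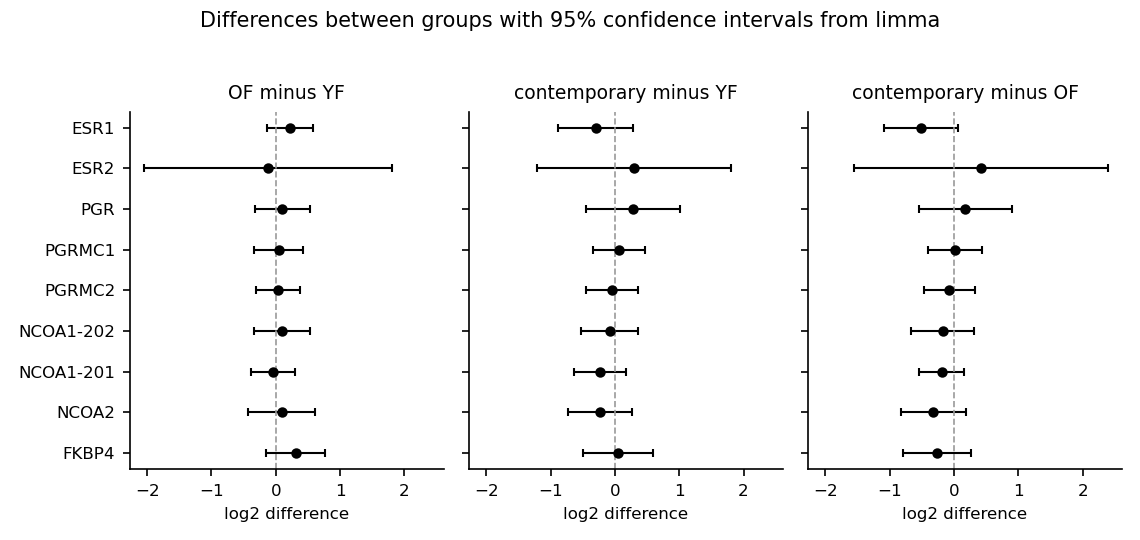
The x axis is the difference between the groups named above each panel, on the log2 scale, with 1 transcript per line. Points are fitted differences and bars 95% confidence intervals from limma. Every bar spans 0, the ESR2 bars are the widest, and the bar that lies farthest to 1 side of 0 is that of ESR1 in contemporary cows against OF, from -1.08 to 0.054.

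The coactivators NCOA1 and NCOA2 form complexes with ligand-bound receptors and acetylate histones at their targets. NCOA2 was at -2.07, -2.28, -2.61 and -2.79 in the OF, at -2.23, -2.25, -2.74 and -2.91 in the YF and at -2.62, -2.76 and -2.91 in the contemporary cows. OF and YF covered the same range, and the contemporary cows lay in its lower part. OF minus YF was 0.091 (SE 0.23, 95% interval -0.43 to 0.61) and contemporary cows minus YF was -0.23 (SE 0.22). OF minus YF was 0.32 (SE 0.24) with the smooth muscle score in the fit, 0.35 (SE 0.26) without OF 2258 and OF 0234, the highest in smooth muscle, and 0.20 (SE 0.20) with the slide as a block. Contemporary cows minus OF was -0.33 (SE 0.22), with p = 0.172 in limma before adjustment and p = 0.229 in an exact permutation test. The probe with the LXXLL codons and the other NCOA2 probe gave 0.11 and 0.075 for OF minus YF, and their deviations correlated at r = 0.86.

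NCOA1 was measured as transcripts NCOA1-202 and NCOA1-201, and they should not be read as equals. NCOA1-202 was at -2.74, -2.91, -2.96 and -3.41 in the OF, at -2.77, -3.14, -3.20 and -3.31 in the YF and at -2.96, -3.29 and -3.31 in the contemporary cows. OF minus YF was 0.097 for it (SE 0.19, 95% interval -0.34 to 0.53), 0.25 with the smooth muscle score in the fit and 0.27 without the OF highest in smooth muscle. Of the 2 probes of NCOA1-201, the first was above background on 0 of 12 arrays, with intensities of 3.00 to 4.66, and the second on 12 of 12, with 70.9 to 160.0. The level of NCOA1-201, between -6.29 and -5.67 in all animals used, is therefore the mean of a measured and an unmeasured probe. The measured probe gave -0.19 for OF minus YF and -0.40 for contemporary cows minus YF, where the mean of both gave -0.041 (SE 0.15) and -0.23 (SE 0.17).

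GREB1 was not measured. Its 2 probes, printed above, were above background on 0 of 12 arrays, with intensities between 2.68 and 8.9999 for the first and between 2.29 and 7.89 for the second on the 11 arrays used, below the dimmest probe called well above background on any array, at 10.96. No fold is given for it in any comparison. The array thus holds no reading of this estrogen-induced gene, in OF, YF or contemporary cows.

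The receptor levels were set beside the scores of tissue markers, because biopsies differ in the cells they hold. Deviations from the group mean were correlated over 11 animals for 18 relations, with exact permutation within groups. ESR2 was lower in the animals with a low epithelial score, with Pearson r = 0.86 (p = 0.0246, adjusted p = 0.253) and Spearman rho = 0.70 (p = 0.0477, adjusted p = 0.430) in exact permutation tests. Without OF 2258 and YF 1069, the 2 animals farthest from the median of the score, r was 0.10, so that the relation rests on those animals. NCOA2 gave r = 0.74 with the same score (exact p = 0.0281, adjusted p = 0.253) and rho = 0.74 (exact p = 0.0454, adjusted p = 0.430), and without the same animals r was 0.39. On the second slide alone, with 8 animals, the coefficients were 0.90 for ESR2 and 0.74 for NCOA2. The first slide held too few animals for a value.

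Neither relation, nor any of the other 16, passed adjustment. ESR2 against the smooth muscle score gave r = -0.66 (exact p = 0.0747, adjusted p = 0.370) and rho = -0.47 (exact p = 0.268, adjusted p = 0.663), and r was -0.12 without OF 0233 and OF 2258. PGR against the epithelial score gave r = -0.39 (exact p = 0.0822, adjusted p = 0.370) and rho = -0.33 (exact p = 0.223, adjusted p = 0.663), and without the animals lowest in epithelium r was 0.10. Without cow 1128, the highest in PGR, it became -0.86 (exact p = 0.00260, adjusted p = 0.0469), the single relation that passed in any set of animals tried. That adjustment covers the 18 relations without this cow and not the search over sets of animals. The value is therefore given as a description, and no conclusion is drawn from it. ESR1 and PGR deviated together with r = 0.65 (exact p = 0.248, adjusted p = 0.516) and rho = 0.55 (exact p = 0.204, adjusted p = 0.663), and r was 0.25 without cows 1128 and 1129. For ESR1 and OXTR r was 0.33 (exact p = 0.662, adjusted p = 0.851) and rho 0.16 (exact p = 0.750, adjusted p = 0.965), and r was -0.41 without the same cows.

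**Figure D4:**
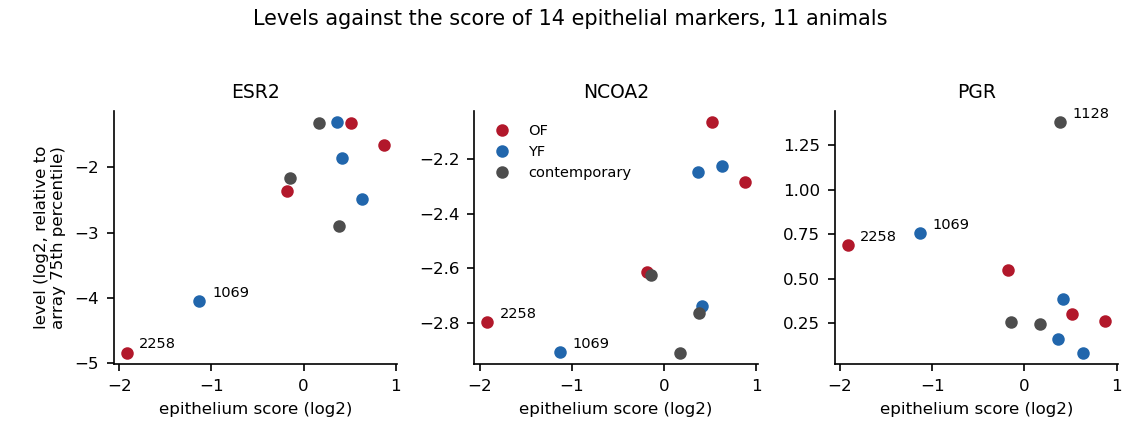
The x axis is the mean of 14 epithelial markers per animal, each centred on its mean over 11 animals, on the log2 scale, and the y axis is the level of the gene named above the panel. Colours mark the groups. The ESR2 points of OF 2258 and YF 1069 lie at the lower left and far from the other 9, and PGR of the contemporary cow 1128, at 1.38, lies above all others.

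The smooth muscle and epithelial scores themselves overlapped between OF and YF, with the wider spread in the OF. For smooth muscle the OF had a mean of 1.24 (SD 2.30) and the YF one of -0.71 (SD 0.62), with all 15 markers higher in the mean of the OF and p = 0.200 in an exact permutation test. For epithelium the means were -0.18 (SD 1.24) and 0.072 (SD 0.81), with 10 of 14 markers lower in OF and an exact p of 0.686. With the smooth muscle score in the fit, OF minus YF was 1.01 for ESR2 (SE 0.75), -0.050 for PGR (SE 0.21) and 0.26 for ESR1 (SE 0.20). With the epithelial score, a choice made after the values were seen, the same differences were 0.19 (SE 0.33), 0.051 (SE 0.13) and 0.21 (SE 0.16).

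When the animals lowest in epithelium, OF 2258 and YF 1069, were both left out, also a choice made after the values were seen, OF minus YF of ESR1 was 0.38 (SE 0.15), past an unadjusted p of 0.05 in limma, with an adjusted p of 0.999. ESR2 then differed by 0.10 (SE 0.37). When the animals highest in smooth muscle, OF 2258 and OF 0234, were left out, ESR1 differed by 0.26 (SE 0.21) and ESR2 by 0.93 (SE 0.69). The count of the 9 transcripts that passed adjustment remained 0 in each of these fits.

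The transcripts that followed ESR1 and PGR most closely over the 11 arrays were taken from the 16644 transcripts above background on all of them that carry a symbol. For ESR1 they were 4 transcripts annotated as 5S_rRNA, with r between 0.92 and 0.93, and KDM8, a jumonji-domain protein, with r = 0.91. Copies of 5S ribosomal RNA are near-identical and their probes may share signal. For PGR they were MRPL43, a mitochondrial ribosomal protein, with r = 0.91, GPNMB, a transmembrane glycoprotein of macrophages and other cells, with r = 0.90, YPEL1 with r = 0.90, C6orf15 with r = 0.89 and ULBP3 with r = 0.88. These coefficients are the highest of many over 11 points and are given as a description.

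The other genes of the pathways were taken from 7 lists with 89 genes, of which 88 were on the array. Of the 78 tested between OF and YF, 0 passed adjustment, 4 were higher and 2 lower in OF at an unadjusted p of 0.05, and 4 had groups that did not overlap. Over all transcripts 1.44% were higher and 0.977% lower at that p, and 1.54% had groups that did not overlap. The median difference over the 78 was 0.051, against 0.0096 over all tested. FCROS called 6 of the 78 higher and 2 lower in OF, against 4.94% of all transcripts in either direction. The 78 had passed the background filter, while the 4.94% is over all 26323 transcripts, so these shares come from unlike sets. FCROS also called GPER1 higher in OF, a list gene that did not reach the background filter and is not among the 78.

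**Figure D5:**
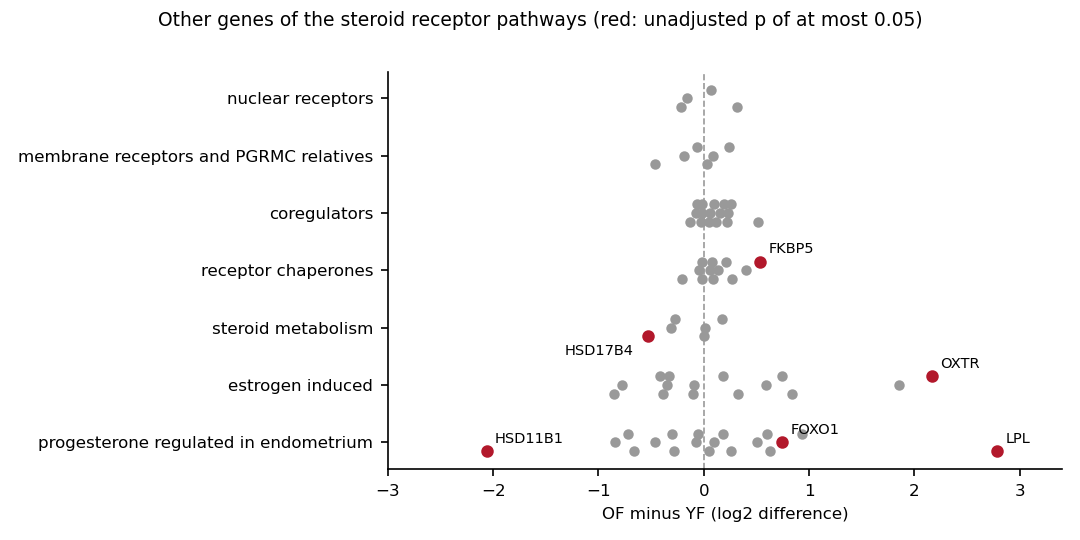
Each point is 1 gene of the list named on the y axis, and the x axis is the log2 difference OF minus YF. Red points have an unadjusted p of at most 0.05 in limma. Receptors, coregulators and chaperones lie between -0.46 and 0.53, and the genes induced by estrogen or regulated by progesterone spread from -2.06 to 2.78.

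Among the partners of the receptors little moved. Of 4 nuclear receptors tested, which were the estrogen-related receptors ESRRA and ESRRB, the glucocorticoid receptor NR3C1 and the mineralocorticoid receptor NR3C2, 0 passed an unadjusted p of 0.05 between OF and YF, and the same held for 6 membrane receptors and relatives of PGRMC1. Of 16 coregulators, 10 were higher and 6 lower in OF, with a median of 0.079, and 0 passed. FOXA1, the pioneer factor that opens chromatin for the estrogen receptor, passed that p in contemporary cows against OF only as the mean of a measured and an unmeasured probe. Its dimmer probe was above background in 0 of the 4 OF, 0 of the 4 YF and 0 of the 3 contemporary cows, and its other probe, above background in all 11, gave -0.35 (SE 0.21), not past an unadjusted p of 0.05. Of 12 chaperones of the receptor complex, 8 were higher and 4 lower in OF.

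FKBP5, a co-chaperone that competes with FKBP4 for the receptor complex and whose transcription responds to steroid hormones, was the chaperone past an unadjusted p of 0.05. It was at 3.14, 3.27, 3.30 and 3.81 in the OF and at 2.69, 2.69, 2.99 and 3.01 in the YF. Contemporary cows had 1.96, 2.77 and 3.01, so that every OF lay above every other animal used. OF exceeded YF by 0.53 (SE 0.18, p = 0.0181 in limma before adjustment, exact permutation p = 0.0286), and contemporary cows minus OF was -0.80 (SE 0.29, p = 0.0276 and exact p = 0.0286). Without cow 1128 the latter was -0.49 (SE 0.25), and with the smooth muscle score in the fit OF exceeded YF by 0.33 (SE 0.19), neither past an unadjusted p of 0.05. After adjustment p was 0.911 in contemporary cows against OF, and 0 of the 12 chaperones passed in any comparison.

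Steroid metabolism held 6 genes that could be tested. Among them was HSD17B4, an enzyme of peroxisomes that oxidises estradiol and fatty acids. Its OF minus YF was -0.53 (SE 0.23, p = 0.0476 in limma before adjustment, exact permutation p = 0.0571). The groups overlapped, and FCROS did not call it. The brighter HSD17B4 probe alone gave -0.39 (SE 0.22). The difference was -0.52 (SE 0.25) with the slide as a block and -0.41 (SE 0.28) with the smooth muscle score in the fit. None of these passed an unadjusted p of 0.05. The aromatase CYP19A1, the sulfotransferase SULT1E1 and HSD3B1 did not reach the background filter in OF or YF.

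Of 15 tested genes from the list of genes induced by estrogen, 7 were higher and 8 lower in OF, with a median of -0.090. OXTR differed by 2.17 (SE 0.78, p = 0.0232 before adjustment, exact permutation p = 0.0857) with overlapping groups, and FCROS called it. Its OF were at -2.54, -0.63, -0.22 and 1.84 and its YF at -2.91, -2.78, -2.44 and -2.10. The OF with the highest OXTR, 2258, was the one with the highest smooth muscle score and the lowest ESR2. OXTR differed by 1.42 (SE 0.52) without this animal, and by 0.89 (SE 0.52), not past an unadjusted p of 0.05, with the smooth muscle score in the fit. The contemporary cows were above YF for 11 of the 15 estrogen-induced genes, with a median of 0.40 against -0.023 over all transcripts, and 0 of them passed an unadjusted p of 0.05, where the background was 3.03%.

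Progesterone-regulated genes gave 3 of the 6 genes past that p between OF and YF, from 19 tested, where the background over all transcripts was 2.41%. LPL, which releases fatty acids from lipoproteins, had an OF minus YF of 2.78 (SE 0.79, p = 0.00750 before adjustment, exact permutation p = 0.0286). In FOXO1, a transcription factor of stromal differentiation, the difference was 0.74 (SE 0.27, p = 0.0231, exact permutation p = 0.0286). HSD11B1, which regenerates active glucocorticoid, gave -2.06 (SE 0.53, p = 0.00433, exact permutation p = 0.0286). In these genes the groups did not overlap, and OF 2258 held the extreme value of each, at 0.82, 1.59 and -7.22. Without OF 2258 the differences were 2.07 for LPL (SE 0.59), 0.50 for FOXO1 (SE 0.20) and -1.50 for HSD11B1 (SE 0.27). After adjustment none of the 19 passed in limma.

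The level of HSD11B1 was partly limited by the background. Its dimmer probe was above background in 3 of the 4 OF, 4 of the 4 YF and 2 of the 3 contemporary cows, and read 2.63 units of intensity in the lowest OF. Its brighter probe was above background in every animal used and gave an OF minus YF of -1.87 (SE 0.44). With normexp background correction the difference was -0.81 (SE 0.17).

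Among the OF, LPL and the smooth muscle score fell in the same order, a relation that was not tested. LPL was at 0.82, -0.75, -2.31 and -2.95 in OF 2258, 0234, 0245 and 0233, whose smooth muscle scores were 3.94, 2.32, -0.30 and -1.02. With that score in the fit OF minus YF was 1.36 for LPL (SE 0.36), 0.42 for FOXO1 (SE 0.26), not past an unadjusted p of 0.05, and -1.42 for HSD11B1 (SE 0.52). Without the OF highest in smooth muscle, 2258 and 0234, LPL differed by 1.45 (SE 0.50).

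HSD11B1 in contemporary cows minus YF was -1.53 (SE 0.42, p = 0.00687, exact permutation p = 0.0571). The brighter probe alone gave -1.52 (SE 0.47). Several other settings gave smaller differences. The contemporary cows used lay on the second slide and the YF on both, and with the slide as a block the difference was -1.13 (SE 0.46). With the cow that the labels leave out added to the contemporary cows it was -1.18 (SE 0.46). With normexp background correction it was -0.76 (SE 0.19). Leaving out single animals moved the main difference both ways, to -1.06 (SE 0.34) without cow 1068 and -1.83 (SE 0.45) without cow 1129. Cow 1068 was at -5.93, with only its brighter HSD11B1 probe above background. SLC5A1, a glucose transporter, also passed an unadjusted p of 0.05 as lower in contemporary cows than in YF, but it entered the test through the YF, and its probes were above background in 1 and 2 of the 3 contemporary cows, so that no difference is given. These were the genes of the lists past that p there, and they share the YF arrays with the values above. For 2 of the 79 genes tested the groups did not overlap, where the background was 3.83%. They were HSD11B1 and MSX2, a homeobox transcription factor that is named here after its values were seen. MSX2 was at -0.095 (SD 0.21, n = 3) in contemporary cows and at -0.46 (SD 0.12, n = 4) in YF, a difference of 0.36 (SE 0.16, p = 0.0589 in limma before adjustment, exact permutation p = 0.0286). In contemporary cows against OF the genes past that p were FKBP5, FOXA1, LPL and SUSD3. LPL gave -2.26 (SE 0.88, p = 0.0345, exact permutation p = 0.143), and SUSD3, an estrogen-induced gene, gave 0.81 (SE 0.34, p = 0.0455, exact permutation p = 0.0857). SUSD3 remained past an unadjusted p of 0.05 without OF 2258, at 0.53 (SE 0.22), and without cow 1128, at 0.97 (SE 0.40). It did not pass with the slide as a block, at 0.83 (SE 0.39), or without cow 1068, at 0.67 (SE 0.40). Nor did it pass with the cow that the labels leave out added, at 0.60 (SE 0.34). LPL passed that p with the slide as a block, at -2.60 (SE 0.93). It did not pass without cow 1128, at -1.96 (SE 1.04), or without cow 1129, at -2.19 (SE 1.08).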

How the data were processed

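Arrays of 12 cows were deposited as scanner files of Feature Extraction 10.7.3.1, in which the authors gave each spot a background-corrected Cy-3 intensity with no normalization between arrays, and no normalization is named in the sources used here. Control spots (1319) and 66 flagged probes were left out, log2 was taken, the 75th percentile of each array was subtracted, and spots and then probes of a transcript were averaged. Symbols came from the accessions and names in the files, updated with a RefSeq gene table. A transcript was tested where the scanner software had called at least 1 of its probes above background throughout a compared group, using limma 3.58.1 (R 4.3.3), two-sided, with Benjamini-Hochberg adjustment at 0.05, on the arrays of the groups compared. Exact permutation tests used animals. With 4 arrays per group, their number limits the precision. FCROS was coded from its description (16 ratios, trim 0.25, f-values of 0.025 and 0.975, fold change 1.5). Scripts were tested on simulated data. Scores are means of centred marker levels. Planned relations with GREB1 were not run, since it was below background. The animal is the replicate, and nothing pairs animals between groups. Every member is named, the transcripts most like ESR1 and PGR, and list genes past an unadjusted p of 0.05. Members, lists and tests were chosen with earlier results of these data known. Alternatives are given in the closing section.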

Additional observations from a re-analysis of the deposited data

Results flagged for a closer look

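The epithelial score of YF 1069, at -1.13, stood apart from the scores of the other YF, which lay between 0.37 and 0.63. Its gap to the nearest of them was 0.850 of the range of the group, above Dixon's critical value for 4 samples. The same check was made in OF and in YF for 9 transcripts and for 2 scores, and chance marks about 1 in 20 such groups. In the same animal ESR2 was at -4.05, FKBP4 at 0.070 and PGR at 0.75.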

How the results depend on the processing

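The count of the 9 transcripts that passed adjustment was 0 in each comparison under every alternative, and FCROS called 0 of 10 under each of its own, while its calls over all transcripts ran from 546 with normexp background correction to 1553 without YF 1072. OF minus YF of ESR2 became 0.038 with normexp, 0.16 with the slide as a block, 1.01 with the smooth muscle score and 0.19 with the epithelial score, and 0.10 or 0.93 without the animals lowest in epithelium or highest in smooth muscle. PGR became -0.050 with the smooth muscle score and -0.065 without the latter animals, PGRMC1 -0.068 without the former, PGRMC2 -0.012 with the slide, and NCOA1-201 0.069 with normexp and 0.054 or 0.013 without those animals. Contemporary cows minus YF became 0.0025 (median centring) and 0.0076 (brightest probe) for PGRMC2, 0.067 for NCOA1-202 and 0.058 for NCOA2 with the slide, and 0.026 for NCOA1-202 with cow 1111. Without the 2 farthest animals, r became 0.22 and 0.047 for ESR1 with smooth muscle and epithelium, 0.10 for PGR with epithelium, 0.29 for NCOA1 with smooth muscle, -0.28 and 0.37 for FKBP4 with smooth muscle and epithelium, and -0.41 for ESR1 with OXTR. The causes were not tested.

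With 1 animal left out, 44 differences or coefficients changed sign, while 351 stayed the same in direction and 1 became stronger. OF minus YF kept its sign for ESR1 (0.13 to 0.32), PGR (0.016 to 0.24), FKBP4 (0.18 to 0.40) and NCOA1-202 (0.0094 to 0.23), and ran from -0.66 to 0.65 for ESR2, -0.049 to 0.13 for PGRMC1, -0.058 to 0.081 for PGRMC2, -0.10 to 0.048 for NCOA1-201 and -0.035 to 0.21 for NCOA2. Contemporary cows minus YF ran from -0.24 to 0.68 for ESR2, -0.096 to 0.47 for PGR, -0.035 to 0.14 for PGRMC1, -0.13 to 0.060 for PGRMC2, -0.20 to 0.031 for NCOA1-202 and -0.087 to 0.24 for FKBP4. Contemporary cows minus OF ran from -0.35 to 0.82 for ESR2, -0.20 to 0.37 for PGR, -0.074 to 0.096 for PGRMC1 and -0.15 to 0.027 for PGRMC2. With smooth muscle, r ran from -0.22 to 0.11 for ESR1, -0.37 to 0.073 for PGRMC1, -0.12 to 0.41 for PGRMC2, -0.75 to 0.035 for NCOA1 and -0.32 to 0.32 for FKBP4. With epithelium it ran from -0.34 to 0.28 for ESR1 and -0.46 to 0.70 for FKBP4, and for ESR1 with OXTR from -0.50 to 0.53. The number of relations past adjustment ran from 0 to 1, with 1 (PGR with epithelium) without contemporary cow 1128. No paired analysis was possible because the animals carry numbers of their own that no groups share. Signals near the background limit ESR1, NCOA1-201, GREB1, FOXA1, HSD11B1 and SLC5A1.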

Other observations

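Cow 1111, which the labels leave out, had ESR2 at -0.79, the highest of all 12 arrays, and ESR1 at -5.44, below every animal but cow 1129. Its PGR was at 0.21 and its PGRMC1, at 3.38, was the highest of the 12. Its epithelial score was 0.60 and its smooth muscle score -0.48. With this cow among the contemporary cows, the mean of ESR1 minus that of the OF was -0.61 (SE 0.22), past an unadjusted p of 0.05 in limma, with an adjusted p of 0.802.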
